A study of Mus musculus with 18 samples.

Results

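The comparison described here sets HPRT-knockdown cells against WT control cells at the neuronal stage, the end point of dopaminergic differentiation of mouse embryonic stem (ES) cells. It rests on 6 of the 18 arrays of the series, 3 labelled Control (Neuron) and 3 labelled HPRT knockdown (Neuron). Probes entered it where the detection p-value, which tells how often a blank bead was as bright as the probe, was under 0.05 on all 3 arrays of either group. This held for 20893 of the 45281 probes on the array, which carry 14774 gene symbols. All cells were ESD3 ES cells of strain 129s2/SvPas, kept on mouse embryo fibroblast feeders before differentiation. Both groups carried a viral vector with a short hairpin RNA (shRNA), named a retrovirus in the sample labels and a lentivirus in the study's methods, and both were selected with puromycin as a transduced pool. The hairpin of the knockdown cells was aimed at HPRT (at the human gene, per the study's methods) and that of the control cells at firefly luciferase, which mouse cells lack. The cells were differentiated through spherical neural masses (SNM), floating colonies of neural precursors that are plated to mature, and the neuronal stage was the last time point after plating. The RNA of each group was 1 pool made from replicate cultures and was hybridised to 3 arrays, so every standard error and p-value below describes repeat hybridisation of 1 pool, with no term for differences between cultures.

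HPRT returns the purine bases hypoxanthine and guanine to the nucleotide pool, and people who lack it develop Lesch-Nyhan disease, in which dopamine in the basal ganglia is low. Neurons, astrocytes and oligodendrocytes arise from shared neural precursors, neurons first and the myelin-forming oligodendrocytes late. Cultures started from pluripotent cells can also hold derivatives of other germ layers, among them skeletal muscle, so lists of genes of these cell types were followed beside those of neurons.

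Each of the 6 arrays detected between 20911 and 22161 probes. After background correction and normalization, the correlation of log2 signals over the tested probes was between 0.991 and 0.996 for arrays of one group and between 0.913 and 0.921 for a knockdown array against a control array. Probes are not independent replicates, and these correlations describe the arrays only. All levels below are log2 normalized signals and all differences are knockdown minus control. A probe was called at a change of at least 1.5-fold with a Benjamini-Hochberg adjusted p-value under 0.05 in limma. With 3 arrays on either side the smallest two-sided p of an exact permutation test is 0.1.

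The targeted gene was strongly reduced. The brightest of the 3 probes for Hprt1, the array's name for the HPRT gene, gave 11.08, 11.03 and 11.03 on the control arrays and 6.56, 6.64 and 6.60 on the knockdown arrays, so that the signal was 95.4% lower (log2 fold change -4.45, adjusted p = 9.64e-17). A further Hprt1 probe fell from 10.14, 9.97 and 10.02 to 5.70, 5.65 and 5.64, 95.2% lower. The remaining Hprt1 probe gave 8.34, 8.11 and 8.26 in control cells and was detected on 0 knockdown arrays, at least 11.3-fold lower.

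Apart from Hprt1 the RNA pools differed over a large part of the array. In knockdown cells 2908 probes (2267 gene symbols) were called higher, 13.9% of those tested, and 2824 probes (2236 symbols) were called lower, 13.5%. Together these were 27.4% of the tested probes, with 20 symbols holding probes of both directions. The median difference over all tested probes was 0.01 and the median size of a called difference 0.95 on the log2 scale. Most called differences were modest: 1633 of the higher probes and 1463 of the lower ones changed by less than 2-fold. At 16-fold or more there were 36 higher and 79 lower probes. The knockdown and control arrays did not overlap for 13121 tested probes, 62.8%, so a lack of overlap is common on these arrays. Counts of called genes and statements on overlap below are to be read against these shares. Of the tested probes, 330 were detected on 0 control arrays and 612 on 0 knockdown arrays.

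**Figure D1:**
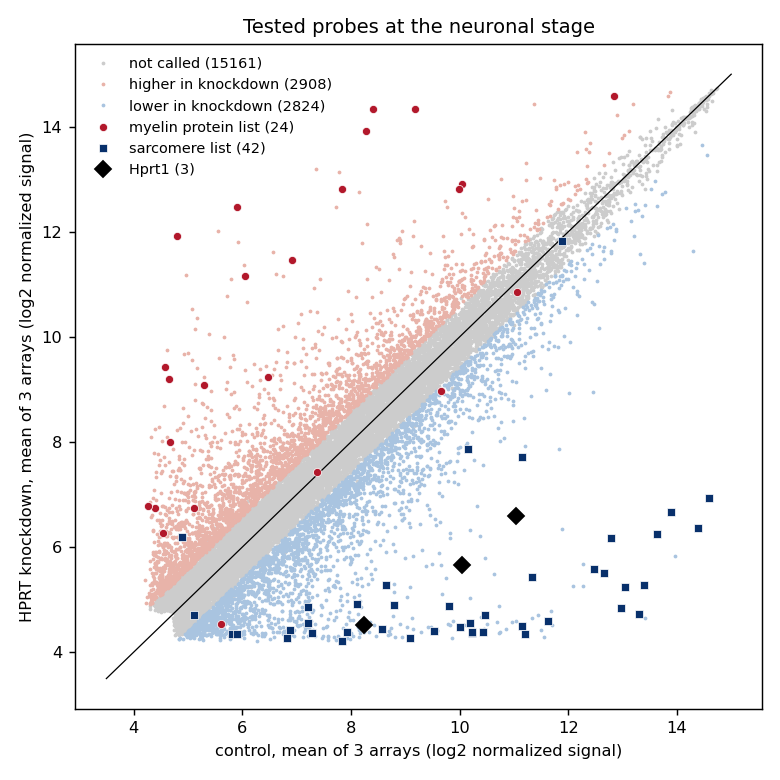
Mean log2 normalized signal of the 20893 tested probes over the 3 knockdown arrays (vertical axis) against the mean over the 3 control arrays (horizontal axis), with the line of equal signal. Small points are single probes, coloured by call (2908 higher, 2824 lower), and large symbols mark the 24 tested genes of the myelin list, the 42 tested genes of the sarcomere list and the 3 Hprt1 probes. Most sarcomere genes lie below the line, and most myelin genes lie above it.

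Among the 10 genes with the largest increase in knockdown cells were Opalin, Mag, Enpp6, Mbp, Gpr17, Sox10, Fa2h, 1190002H23Rik and Nkx2-2. Apart from 1190002H23Rik (now Rgcc), which has roles in the cell cycle, these are genes of oligodendrocytes or their precursors. The 10 with the largest decrease were scl000959.1_2, Tnnc2, Myh3, Myh8, Acta1, Tnni2, Myl1, Myl4, Sln and Mylpf. Apart from scl000959.1_2, an array entry whose gene could not be named here, these encode proteins of the contractile apparatus of striated muscle or, for Sln, the inhibitor of its calcium pump. Genes entered both rankings only if called and if the knockdown and control arrays did not overlap, so their separation was set by the rule.

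**Figure D2:**
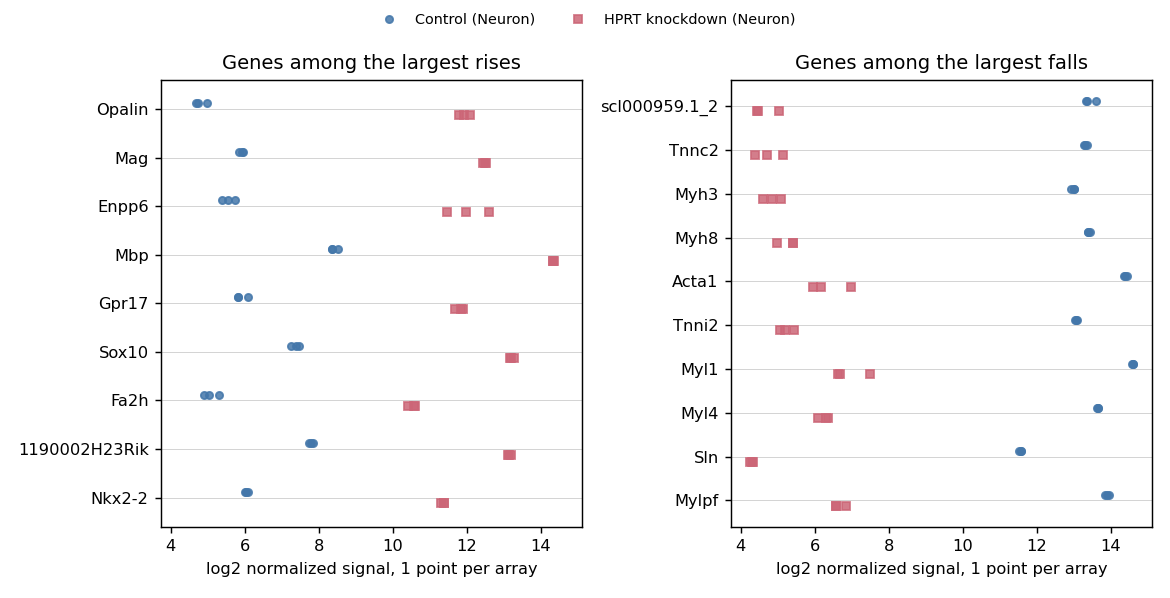
Log2 normalized signal on each array (horizontal axis) of genes among the 10 with the largest rise (left) and of the 10 with the largest fall (right) in knockdown cells. Circles are the 3 control arrays and squares the 3 knockdown arrays. Log2 fold changes run from 5.32 for Nkx2-2 to 7.14 for Opalin on the left and from -7.22 for Mylpf to -8.77 for scl000959.1_2 on the right.

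Genes of myelin, the membrane wrapped around axons, were higher in knockdown cells. Of a list of 30 genes for structural and membrane proteins of myelin, 24 were tested, 20 were higher, 2 were lower, 2 were not called and 6 were not tested. The median difference of the tested genes was 3.10, beside 0.01 over all tested probes. Opalin, a membrane protein of oligodendrocytes, gave 4.97, 4.67 and 4.74 on the control arrays and 12.09, 11.79 and 11.91 on the knockdown arrays. The log2 fold change was 7.14 (SE 0.11, adjusted p = 1.61e-17), and the probe was detected on 2 of the 3 control arrays. Mag, an adhesion protein of the myelin surface that faces the axon, gave 5.94, 5.85 and 5.93 against 12.44, 12.49 and 12.50, a 95.1-fold difference. For Opalin and Mag the lack of overlap between groups was a condition of their choice. Bcas1, a gene of early myelinating cells, gave 9.28, 9.19 and 9.06 against 14.33, 14.32 and 14.34 (35.6-fold). Trf, the iron carrier transferrin, was 34.7-fold higher. Mog, a protein of the outermost myelin layer, was detected on 0 control arrays and on 3 knockdown arrays and was at least 4.10-fold higher. The 2 lower genes, named here after their values were seen like the other single exceptions below, were Cntn2, an axonal adhesion protein (log2 fold change -1.07), and Lpar1, a receptor for lysophosphatidic acid (-0.67), and without background correction 1 or 0 genes of the list were lower. In RNA of whole cultures, fewer cells of a type and less RNA per cell cannot be told apart, here and below.

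Enzymes that make the lipids of myelin were higher as well. Of 20 genes for fatty acid and myelin lipid synthesis, 19 were on the array and 17 were tested, of which 10 were higher, 1 lower (Acly, which makes acetyl-CoA in the cytosol) and 6 not called, with a median of 0.72. Fa2h, which adds the hydroxyl group to their fatty acids, gave 5.03, 5.31 and 4.89 in control and 10.57, 10.60 and 10.41 in knockdown cells (43.7-fold). Gal3st1, which makes sulfatide, gave 5.23, 5.07 and 5.11 against 10.24, 10.16 and 10.04 (32.2-fold). Ugt8a, which makes galactosylceramide, gave 5.44, 5.51 and 5.20 against 10.04, 10.20 and 9.93 (25.5-fold). In none of these did the groups overlap, as for 62.8% of all tested probes, and for Fa2h this was a condition of its choice. Enzymes of general fatty acid synthesis differed less, Scd1 by 2.89-fold and Fads2 by 2.10-fold. Of 22 cholesterol synthesis genes, 20 were on the array and tested, and 3 were higher (Hsd17b7, Tm7sf2 and Mvk) and 0 lower, with a median of 0.20. The 3 higher genes were 15% of those tested, near the 13.9% over all tested probes. The calls of Tm7sf2 and Mvk were lost without background correction, which left 1 higher gene, and Mvk was also not called without knockdown array 1, control array 2 or control array 3.

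Genes of the precursors of these cells were mostly higher. Of 20 genes of oligodendrocyte precursors and premyelinating cells, 19 were on the array and tested, and 17 were higher, 1 lower and 1 not called, with a median of 1.75. Enpp6, a choline phosphodiesterase of newly forming oligodendrocytes, gave 5.54, 5.73 and 5.39 on the control arrays and 11.46, 11.98 and 12.61 on the knockdown arrays. This was an 88.2-fold difference with a wide SE of 0.28 on the log2 scale. Gpr17, a receptor of premyelinating cells, gave 6.10, 5.83 and 5.82 against 11.90, 11.84 and 11.67 (59.2-fold). Lhfpl3, Chn2 and Neu4 were 23.8, 12.3 and 10.7-fold higher. Cspg4 (NG2), the proteoglycan that marks precursors, gave 5.21, 5.31 and 5.47 against 6.49, 6.42 and 6.62 (2.26-fold). Pdgfra, the growth factor receptor of the same precursors, gave 10.81, 11.10 and 10.94 against 10.58, 10.81 and 10.70, overlapping values that were not called. The 1 lower gene was Matn4, a matrix protein (log2 fold change -2.09).

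Among 21 transcription factors of the oligodendrocyte lineage, 20 were tested and 13 were higher, 1 was lower and 6 were not called, with a median of 0.92 (0.83 with undetected members at their bound). Sox10, which drives myelin gene expression, gave 7.37, 7.45 and 7.24 in control and 13.18, 13.27 and 13.16 in knockdown cells, a 57.7-fold difference. Nkx2-2, active in precursors as they begin to mature, gave 6.01, 6.03 and 6.08 against 11.31, 11.39 and 11.39 (40-fold). For Sox10 and Nkx2-2 the lack of overlap between groups was a condition of their choice. Olig1 differed by 4.25-fold, Sox8 by 5.13-fold and Nkx6-2 by 4-fold, and Olig2 was detected on 1 of the 3 control arrays and differed by 4.22-fold. Myrf, the regulator of the final step to myelination, was not tested on this array. The lower gene was Hes5, a Notch target that holds precursors back, at 7.68, 7.78 and 7.78 against 6.83, 6.97 and 6.89.

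Peripheral myelin was looked at separately, since Schwann cells share many of these genes. Of 19 neural crest and Schwann cell genes, 18 were on the array and 12 were tested, with 4 higher, 3 lower and 5 not called and a median of 0.21. Prx, a scaffold of Schwann cell myelin, gave 5.02, 5.24 and 4.87 against 5.29, 5.41 and 4.99, with overlap and no call. Dhh, a ligand released by Schwann cells, was 4.18-fold higher, whereas the neural crest factors Tcfap2b and Snai2 were 3.21 and 2.84-fold lower.

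Stretches of promoter sequence are given for 3 of the myelin genes that were higher, since SOX factors such as Sox10 bind short motifs of the form ACAAAG. The motif was sought in both strands, as ACAAAG or CTTTGT, in the 250 bases before the transcription start in RefSeq's promoter table (mouse build GRCm38.p6). It stood in 18.6% of the 27025 genes with a promoter there. Of the 20 called higher genes of the myelin list, 13 had a promoter in the table and 6 of these held the motif (46.2%). Of 9 higher lineage transcription factors with a promoter, 2 held it (22.2%). A match is a description of the letters and not of binding. The genes shown are the 3 with the largest difference among the myelin genes for which a stretch with the motif could be given: Opalin at chr19:41077114-41077363 on the minus strand, Mag at chr7:30914864-30915113 on the minus strand and Plekhb1, a membrane-associated signalling protein, at chr7:100656966-100657215 on the minus strand. Sequences run 5′ to 3′ on the gene's strand and end at the base before the start, with the motif in capitals.
Opalin: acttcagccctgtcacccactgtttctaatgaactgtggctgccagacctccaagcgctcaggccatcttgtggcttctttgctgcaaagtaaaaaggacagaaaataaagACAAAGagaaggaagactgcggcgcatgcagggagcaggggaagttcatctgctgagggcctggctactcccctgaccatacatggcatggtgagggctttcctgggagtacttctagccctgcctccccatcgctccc
Mag: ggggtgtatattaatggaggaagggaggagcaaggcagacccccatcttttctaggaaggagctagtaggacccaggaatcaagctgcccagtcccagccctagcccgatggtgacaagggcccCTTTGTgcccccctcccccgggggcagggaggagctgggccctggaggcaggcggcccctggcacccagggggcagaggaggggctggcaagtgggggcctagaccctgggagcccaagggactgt
Plekhb1: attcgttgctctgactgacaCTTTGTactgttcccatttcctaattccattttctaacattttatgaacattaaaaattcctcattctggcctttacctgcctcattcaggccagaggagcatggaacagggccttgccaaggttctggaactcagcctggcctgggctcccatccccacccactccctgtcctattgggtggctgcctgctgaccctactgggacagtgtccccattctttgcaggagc

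Astrocyte genes gave a mixed picture. Of 29 genes of astrocytes and radial glia, 28 were on the array and 26 were tested, and 14 were higher, 4 lower and 8 not called, with a median of 0.63. S100b, a calcium-binding protein that oligodendrocytes hold too, gave 5.05, 4.98 and 5.19 in control and 9.59, 9.43 and 9.67 in knockdown cells (22.4-fold). Apoe, the lipid carrier of the brain, gave 8.92, 8.89 and 8.85 against 11.92, 11.96 and 11.76 (7.98-fold). The glutamate transporter Slc1a2 was 7.52-fold higher, and Gfap, the intermediate filament of astrocytes, 3.05-fold. Neither pair of groups overlapped, as was so for 62.8% of all tested probes. The other glial glutamate transporter, Slc1a3, gave 12.17, 12.29 and 12.10 against 12.22, 12.29 and 12.30 and was not called. The lower genes included Nes, the filament of neural precursors, at 9.52, 9.18 and 9.34 against 7.62, 7.31 and 7.19 (3.93-fold lower).

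Lysosomal genes were also higher. Of 37 genes for lysosomal enzymes and membrane proteins, 36 were tested and 18 were higher, 0 lower and 18 not called, with a median of 0.58. The largest difference was that of Naglu, which degrades heparan sulfate, at 7.19, 7.11 and 7.10 in control and 8.68, 8.81 and 8.79 in knockdown cells (3.09-fold). Gm2a, the activator of ganglioside breakdown, was 2.94-fold higher and the peptidase Tpp1 2.35-fold. Lamp2, a membrane protein of the lysosome, gave 12.09, 12.27 and 12.12 against 11.98, 12.09 and 12.20. The Lamp2 values overlapped and were not called, although 3 of its other probes were called higher. Lamp1 and Ctsd missed the 1.5-fold minimum with all arrays (1.49 and 1.47-fold) and passed it without control array 1, Lamp1 also without knockdown array 3 and Ctsd without knockdown array 2.

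Genes of skeletal muscle were lower in knockdown cells and made up 9 of the 10 largest decreases. Of a list of 48 sarcomere genes, 46 were on the array and 42 were tested, and 39 were lower, 1 was higher, 2 were not called and 4 on the array were not tested. The median difference was -5.32, and -5.09 with undetected members at their bound. The summed linear signal of the 46 genes was between 159328 and 162305 on the control arrays and between 5468 and 5774 on the knockdown arrays. Acta1, the actin of skeletal muscle thin filaments, gave 14.35, 14.39 and 14.42 in control and 6.98, 5.94 and 6.16 in knockdown cells (261-fold, SE of the log2 fold change 0.17, adjusted p = 1.35e-15). Tnnc2, the calcium sensor of fast muscle, gave 13.35, 13.29 and 13.27 against 5.13, 4.70 and 4.38 and was detected on 1 of the 3 knockdown arrays. The myosin heavy chains of embryonic and perinatal muscle were strongly lower as well, Myh3 (detected on 2 of the 3 knockdown arrays) by 8.14 and Myh8 by 8.12 on the log2 scale. Mylpf, a light chain of fast muscle, gave 13.94, 13.82 and 13.90 against 6.85, 6.58 and 6.56 (149-fold). Actc1, the actin of heart and fetal skeletal muscle, gave 12.73, 12.61 and 12.61 against 5.67, 5.40 and 5.44 (141-fold). The knockdown arrays lay apart from the control arrays for Actc1, and for the other genes named here this was a condition of their choice. The 1 higher gene was Myl3, the light chain of slow and ventricular muscle, with a log2 fold change of 1.30.

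The sequences before 3 of these genes are shown because the myogenic factors MyoD and myogenin bind E-boxes, of which CAGCTG is a common form in muscle promoters. CAGCTG reads the same on both strands, and it cannot overlap the SOX-type motif above. In the 250 bases before the start it stood in 14.7% of the 27025 genes. Of the 39 lower sarcomere genes, 30 had a promoter in the RefSeq table and 10 of these held CAGCTG (33.3%), while 3 held the SOX-type motif (10%). Of the 13 myelin genes above, 1 held CAGCTG (7.69%). Shown are the 3 sarcomere genes with the largest difference among those holding it: Acta1 at chr8:123894776-123895025 on the minus strand, Myl1 at chr1:66945057-66945306 on the minus strand and Mylpf at chr7:127211358-127211607 on the plus strand, all of build GRCm38.p6 and with CAGCTG in capitals.
Acta1: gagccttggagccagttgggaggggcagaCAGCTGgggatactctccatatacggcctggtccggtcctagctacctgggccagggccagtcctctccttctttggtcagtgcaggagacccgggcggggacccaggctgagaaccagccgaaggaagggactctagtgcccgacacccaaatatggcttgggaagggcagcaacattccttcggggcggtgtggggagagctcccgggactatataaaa
Myl1: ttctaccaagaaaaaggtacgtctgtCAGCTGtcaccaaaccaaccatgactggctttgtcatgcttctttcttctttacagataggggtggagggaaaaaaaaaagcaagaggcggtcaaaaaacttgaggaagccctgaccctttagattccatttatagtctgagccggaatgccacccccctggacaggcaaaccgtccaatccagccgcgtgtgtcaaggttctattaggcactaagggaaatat
Mylpf: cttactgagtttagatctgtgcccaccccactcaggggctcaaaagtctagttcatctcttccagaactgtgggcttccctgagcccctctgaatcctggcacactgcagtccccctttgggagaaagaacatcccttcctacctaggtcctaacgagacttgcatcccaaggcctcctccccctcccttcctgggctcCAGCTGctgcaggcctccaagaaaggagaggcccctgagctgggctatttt

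The regulators of muscle were lower with its structural genes. Of 26 myogenic factors and genes of myoblast fusion, 23 were on the array and 18 were tested, and 14 were lower, 0 higher and 4 not called, with a median of -1.44. Myog (myogenin), which starts terminal muscle differentiation, gave 8.98, 8.86 and 8.85 in control cells and was detected on 0 knockdown arrays, at least 17.8-fold lower. Myf6, the factor of maturing fibres, gave 8.26, 8.33 and 8.13 and was at least 11.3-fold lower. Both were thus detected in control cells alone. Myf5, a factor of muscle precursors, gave 5.64, 5.81 and 5.72 and was at least 1.97-fold lower. Myod1 gave 4.76, 4.85 and 5.06 in control cells, close to background, and was detected on 0 knockdown arrays but did not reach the 1.5-fold minimum.

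Genes of the muscle endplate were lower in part, and most genes of its calcium handling were lower. Of 13 genes of the muscle acetylcholine receptor and endplate, 11 were tested, and 5 were lower, 1 higher and 5 not called, with a median of -0.43. Chrna1, the receptor subunit that binds acetylcholine, gave 11.80, 11.68 and 11.62 in control cells and was detected on 0 knockdown arrays (at least 124-fold lower), and Chrng, the fetal subunit, gave 11.38, 11.31 and 11.33 (at least 96.5-fold lower). The higher gene was Lrp4, the receptor for agrin, by 2.04-fold. Without control array 1 or without knockdown array 3, 2 endplate genes were higher. Of 23 genes of excitation-contraction coupling, 18 were tested, and 16 were lower, 0 higher and 2 not called (median -1.94). Atp2a1, the calcium pump of fast muscle, gave 12.27, 12.29 and 12.27 against 5.41, 5.06 and 5.33 (129-fold), and Sln, its small inhibitor, was at least 112-fold lower. Ryr1, the calcium release channel, was 8.35-fold lower. The groups did not overlap for any of these genes, beside 62.8% of all tested probes, and for Sln this was a condition of its choice.

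Metabolic isozymes of muscle were lower too, 14 of 18 tested genes with 0 higher and 4 not called (19 on the list, median -2.44, and -2.24 with undetected members at their bound). Mb, the oxygen store myoglobin, gave 12.17, 12.01 and 12.08 in control and 5.47, 5.40 and 4.93 in knockdown cells (113-fold). Ckm, muscle creatine kinase, gave 10.01, 9.84 and 9.72 and was at least 34.6-fold lower, being detected on 0 knockdown arrays. Pfkm, a phosphofructokinase that the brain uses as well, gave 12.18, 12.26 and 12.16 against 12.14, 12.19 and 12.13, with overlap and no call. Of 12 genes of heart muscle alone, 4 were tested and 1 (Myh6, a heavy chain of heart myosin, near background) was lower. It was not called without background correction, and 2 heart genes were lower without knockdown array 2. Nppa and Nppb, the natriuretic peptides of the heart, were detected on at most 1 array of a group. Of 9 smooth muscle genes, 5 were tested and 3 were lower, Actg2 by 4.51-fold, Smtn by 2.11-fold and Acta2 by 2-fold.

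Fibroblast and mesenchyme genes were lower by smaller amounts. All 28 genes of that list were tested, and 20 were lower, 1 higher and 7 not called, with a median of -0.83. Meox2, a factor of the somites from which muscle forms, gave 9.77, 9.83 and 9.65 in control and 5.16, 5.70 and 5.38 in knockdown cells (20.2-fold lower). Meox1, detected on 2 of the 3 knockdown arrays, was 10.5-fold lower and the matrix proteoglycan Lum 6.08-fold. The collagens differed less, Col1a1 at 10.24, 10.17 and 10.19 against 9.14, 9.06 and 9.03 and Col3a1 at 12.76, 12.87 and 12.84 against 12.02, 12.01 and 12.41. Pdgfrb, a receptor of fibroblasts and pericytes, gave 5.73, 5.76 and 5.71 against 6.19, 5.77 and 5.62, overlapped and was not called. S100a4 was the higher gene (2.82-fold).

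**Figure D3:**
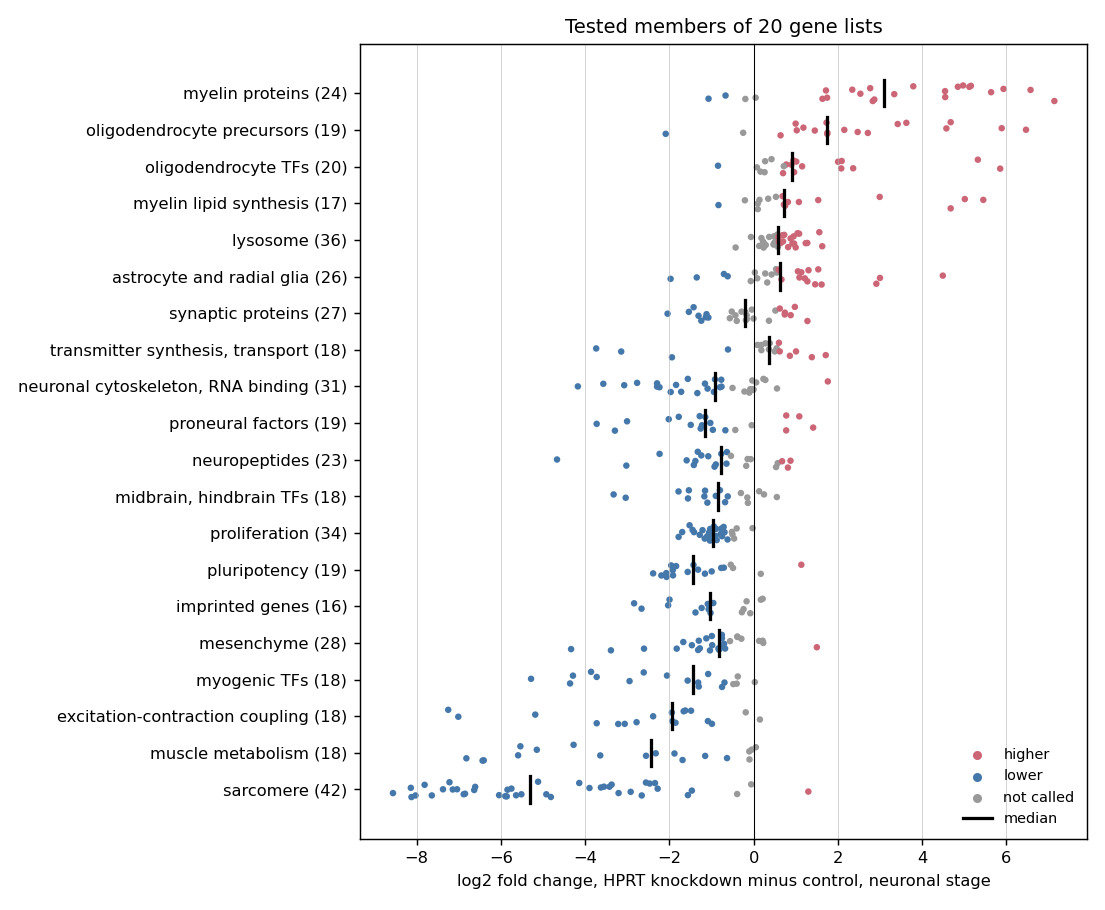
Log2 fold change, knockdown minus control (horizontal axis), of the tested genes of 20 lists, with the number tested in parentheses. Each point is 1 gene, red if called higher, blue if called lower and grey if not called, and black bars are medians, from 3.10 for myelin proteins to -5.32 for the sarcomere. Points are moved vertically at random within a row so that they can be seen apart.

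Neuronal genes were lower in part. The neuronal genes Stmn2, Dcx, Mapt and Syp were detected on all 6 arrays. Stmn2, Mapt and Syp also passed the detection rule at the ES stage, with mean log2 signals of 10.20, 6.41 and 6.46 in control ES cells. Their detection is thus not particular to the neuronal stage, whereas Dcx did not pass the rule at the ES stage. Tubb3, a common marker of neurons, gave signals close to background of 5.11, 4.97 and 5.10 in control and 4.61, 4.51 and 4.55 in knockdown cells, and was detected on 0 knockdown arrays and not called. Snap25, a protein of vesicle fusion, was detected on 0 arrays. Of 34 genes for the neuronal cytoskeleton, growth cone and RNA-binding proteins, 33 were on the array and 31 were tested, and 19 were lower, 1 higher and 11 not called, with a median of -0.92. A2bp1 (now Rbfox1), a splicing factor of neurons, gave 10, 10.64 and 10.49 in control and 6.01, 6.25 and 6.35 in knockdown cells, 18.1-fold lower. Ina, a neurofilament-like protein of young axons, gave 9.59, 9.78 and 10.12 against 6.05, 6.27 and 6.46 (11.9-fold lower). Stmn2, a microtubule regulator of growth cones, gave 11.99, 12.02 and 12.01 against 8.97, 8.90 and 8.94 (8.42-fold lower). All 3 genes had groups far apart, and the RNA-binding proteins Elavl2 and Elavl4 were 6.81 and 4.91-fold lower. Mtap2 (now Map2), the dendritic microtubule protein, gave 11.06, 11.27 and 11.26 against 11.15, 11.23 and 11.38, overlapped and was not called. Mapt, the axonal protein tau, was 2.14-fold lower on its brightest probe, 9.81, 10.55 and 10.32 against 8.71, 9.20 and 9.49, but another of its probes was called higher. The 1 higher gene was Prph, a filament protein of peripheral neurons, and 2 genes were higher without control array 1 or without knockdown array 2 or 3. On the same arrays 39 of the 42 tested sarcomere genes were lower, with summed signals of 159328 to 162305 in control and 5468 to 5774 in knockdown cells, and 20 of the 24 tested myelin genes were higher. Their part in the differences of this and the following gene groups was not tested.

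The factors that start neuronal differentiation were lower. Of 23 proneural and early neuronal genes, 22 were on the array and 19 were tested, and 13 were lower, 4 higher and 2 not called, with a median of -1.15 (-1.03 with undetected members at their bound). Myt1l, which represses other cell fates in neurons, gave 9.32, 9.50 and 9.32 in control and 5.61, 5.86 and 5.49 in knockdown cells (13.3-fold lower). Ebf3 and Ebf2, factors of postmitotic neurons, were 9.82 and 8.04-fold lower, Ebf3 at 11.14, 11.28 and 11.22 against 7.87, 7.95 and 7.93. Neurod1 was 2.39-fold lower, and Neurog2 was detected on 0 knockdown arrays and at least 1.78-fold lower. The 4 higher genes included Dll3, Myt1 and Gadd45g, of which Dll3, an inhibitor of Notch signalling in the same cell, differed by 2.66-fold. Neurog2 was not called without background correction.

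Genes of the synapse and of transmitters divided. Of 36 genes for synaptic vesicles and their fusion and recycling, 27 were tested, and 8 were lower, 6 higher and 13 not called, with a median of -0.20. Syt1, the calcium sensor of release, gave 9.51, 9.68 and 9.66 in control and 7.52, 7.55 and 7.64 in knockdown cells (4.13-fold lower). Syn1 and Sv2b were 2.37 and 2.69-fold lower, whereas Syt11 was 2.42-fold higher. Of 29 genes of transmitter synthesis and transport, 18 were tested, and 4 were lower, 6 higher and 8 not called, with a median of 0.37. The 4 lower genes, Slc17a6, Slc32a1, Gad1 and Slc17a8, serve glutamate, GABA or glycine transmission. Slc17a6, which loads glutamate into vesicles, gave 9.52, 9.72 and 9.63 against 5.80, 6 and 5.84 (13.4-fold lower). Slc32a1, which loads GABA and glycine, gave 9.64, 9.52 and 9.55 against 6.49, 6.42 and 6.36 (8.85-fold lower). Gad1, which makes GABA, was 3.84-fold lower. The groups of these 3 genes did not overlap, as for 62.8% of all tested probes. Among the higher genes, Slc6a9, the glial glycine transporter, differed by 2.60-fold, and Chat, which makes acetylcholine and was detected on 1 of the 3 control arrays, by 2.01-fold. Chat was not called without background correction. The number of higher transmitter genes was 2 under either setting without background correction.

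The defining genes of dopaminergic neurons were at or near background on these arrays, while other genes of their specification were measured. Th, the enzyme that makes L-DOPA, was detected on 1 control array and on 0 knockdown arrays (4.52, 4.54 and 4.69 against 4.62, 4.37 and 4.63), Slc6a3, the dopamine transporter, on 0 and 1, and Pitx3 on none, so that none was tested. Ddc, which turns L-DOPA into dopamine and is found in other cells too, gave 9.60, 9.40 and 9.46 in control and 11.15, 11.22 and 11.23 in knockdown cells (3.27-fold higher). Slc18a2, the vesicular monoamine transporter, gave 5.22, 5.09 and 5.42 against 5.80, 5.73 and 5.83 and missed the 1.5-fold minimum, which it passed without control array 3. Of 18 genes of the floor plate and of dopaminergic specification, 12 were tested, and 5 were higher, 1 lower and 6 not called, with a median of 0.46. Corin, a floor plate protease, was 4.92-fold higher, Foxa1 4.01-fold and Lmx1a 2.14-fold. Lmx1a, which directs floor plate cells to the dopaminergic fate, gave 5.45, 5.40 and 5.54 against 6.66, 6.65 and 6.37. Nr4a2, required by dopaminergic neurons, gave 4.93, 5.09 and 5.25 against 5.12, 5.08 and 5.48 and En1 10.02, 9.96 and 9.75 against 10.02, 10.06 and 10.05. Neither Nr4a2 nor En1 was called.

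Peptide genes were mostly lower, while receptor and channel genes were divided. Of 32 neuropeptide precursors and granins, 23 were tested, and 14 were lower, 3 higher and 6 not called, with a median of -0.77 (-0.65 with undetected members at their bound). Without knockdown array 3, or in a fit of the neuronal-stage arrays alone, 5 were higher. Sst (somatostatin), a peptide of GABA neurons, gave 10.54, 10.43 and 10.41 in control and 5.73, 5.83 and 5.81 in knockdown cells (25.5-fold lower). Npy gave 9.58, 9.48 and 9.60 against 6.58, 6.46 and 6.55 (8.13-fold lower). Tac1 and Vip were detected on 0 knockdown arrays and were at least 3.87 and 2.27-fold lower. The groups of these 4 peptides did not overlap, which held for 62.8% of all tested probes. Of 41 receptor subunits for glutamate, GABA and glycine, 39 were on the array and 20 were tested, and 7 were higher, 4 lower and 9 not called, with a median of -0.11. Without background correction 4 were higher. The AMPA receptor subunits differed in direction, Gria2 at 7.54, 8.03 and 7.80 against 8.85, 9.05 and 9.19 (2.37-fold higher) and Gria1 at 7.73, 7.59 and 7.57 against 6.34, 6.28 and 6.34 (2.49-fold lower). Glra2, the fetal glycine receptor subunit, was detected on 2 of the 3 knockdown arrays and was 6.96-fold lower. Of 34 channel genes, 33 were on the array and 22 were tested, and 7 were lower, 4 higher and 11 not called, with a median of -0.17. Kcnj3, a potassium channel opened by G proteins and detected on 1 of the 3 control arrays, was 4.25-fold higher and Scn3b, a sodium channel subunit, 3.65-fold lower.

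Most tested positional genes of the midbrain and hindbrain were lower, though En1 and En2 were not called. Of 27 transcription factors and signals of the midbrain, isthmus and hindbrain, 18 were tested, and 12 were lower, 0 higher and 6 not called, with a median of -0.85 (-0.74 with undetected members at their bound). Without control array 1 or knockdown array 3, or with the neuronal-stage arrays alone, 1 was higher. Lhx1, a factor of postmitotic interneurons, gave 8.90, 9.36 and 9.19 in control and 5.55, 5.85 and 6.07 in knockdown cells (10-fold lower), and Lhx5 was at least 6.04-fold lower. Otx2, a factor of forebrain and midbrain, was 1.74-fold lower. Of the same list, En1, En2 and Egr2 were not called, with log2 fold changes of 0.13, -0.30 and 0.24. Of 23 factors of the ventral forebrain and hypothalamus, 9 were tested, and 4 were higher, 3 lower and 2 not called. Nkx2-1, a factor of the ventral forebrain, gave 4.94, 5.03 and 4.82 against 7.69, 7.67 and 7.70 (6.76-fold higher), while Isl1 was 7-fold lower. Under either setting without background correction 1 of these factors was higher. Of 16 hedgehog genes, 11 were tested, and 2 were higher, 4 lower and 5 not called, with a median of -0.45. Shh itself, the ventral signal of the neural tube, gave 6.35, 6.40 and 6.15 against 9.02, 8.95 and 8.76 (6.10-fold higher). Its receptor and target Ptch1 gave 7.97, 7.98 and 7.96 against 8.36, 8.38 and 8.42 and was not called, and the transcription factors Gli2 and Gli3 were 3.08 and 4.31-fold lower, although another Gli2 probe was not called.

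Genes of cell division were lower. Of 37 cell cycle and DNA replication genes, 34 were tested, and 29 were lower, 0 higher and 5 not called, with a median of -0.97. Mcm5, a subunit of the replicative helicase, gave 10.58, 10.66 and 10.44 in control and 8.90, 8.85 and 8.59 in knockdown cells (3.44-fold lower), and Tyms, which makes thymidylate, was 3.24-fold lower. Ccnb1, the cyclin of mitosis, gave 9.89, 9.86 and 9.84 against 8.92, 8.92 and 8.94 (1.92-fold lower). Mki67 was 1.67-fold lower on its brightest probe but not on another, and was not called without background correction. The groups of the first 3 genes did not overlap, which was so for 62.8% of all tested probes.

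Pluripotency genes were still detected in the control cells of this stage and were lower in knockdown cells. Of 21 genes, 19 were tested, and 15 were lower, 1 higher and 3 not called, with a median of -1.43. The summed signal of the 21 genes was between 14111 and 14402 in control and between 7178 and 7258 in knockdown cells. Pou5f1 (Oct4), the central factor of ES cells, gave 9.31, 9.24 and 9.16 against 7.42, 7.35 and 7.19 (3.77-fold lower). Nanog gave 10.37, 10.37 and 10.31 against 8.36, 8.57 and 8.36 (3.79-fold lower). Tdgf1 and Dppa4 were 5.23 and 4.57-fold lower. Both Pou5f1 and Nanog remained detected on every array. The 1 higher gene was Sox2, which neural precursors and glia also express, at 9.43, 9.68 and 9.58 against 10.59, 10.55 and 10.95 (2.19-fold).

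Imprinted genes, which are read from the copy of 1 parent, were lower. Of 22 imprinted growth genes, 19 were on the array and 16 were tested, and 10 were lower, 0 higher and 6 not called, with a median of -1.05. Dlk1, a membrane protein of muscle, fat and neural precursors, gave 14.30, 14.30 and 14.31 in control and 11.64, 11.69 and 11.58 in knockdown cells (6.33-fold lower). Mest gave 13.51, 13.47 and 13.22 against 11.32, 11.41 and 11.47 (4-fold lower) and Nnat, a membrane protein of developing neurons, 9.95, 10.37 and 10.37 against 8.08, 8.18 and 8.32 (4.09-fold lower). The entry 4930431J08Rik (now Zdbf2) was 7.16-fold lower. Igf2, a fetal growth factor made in developing muscle, gave 14.55, 14.57 and 14.55 against 13.49, 13.50 and 13.41 (2.13-fold lower), with no overlap. H19, its neighbour, gave 14.48, 14.62 and 14.52 against 14.30, 14.29 and 14.30 and was not called on its brightest probe, although its other probe was lower.

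**Figure D4:**
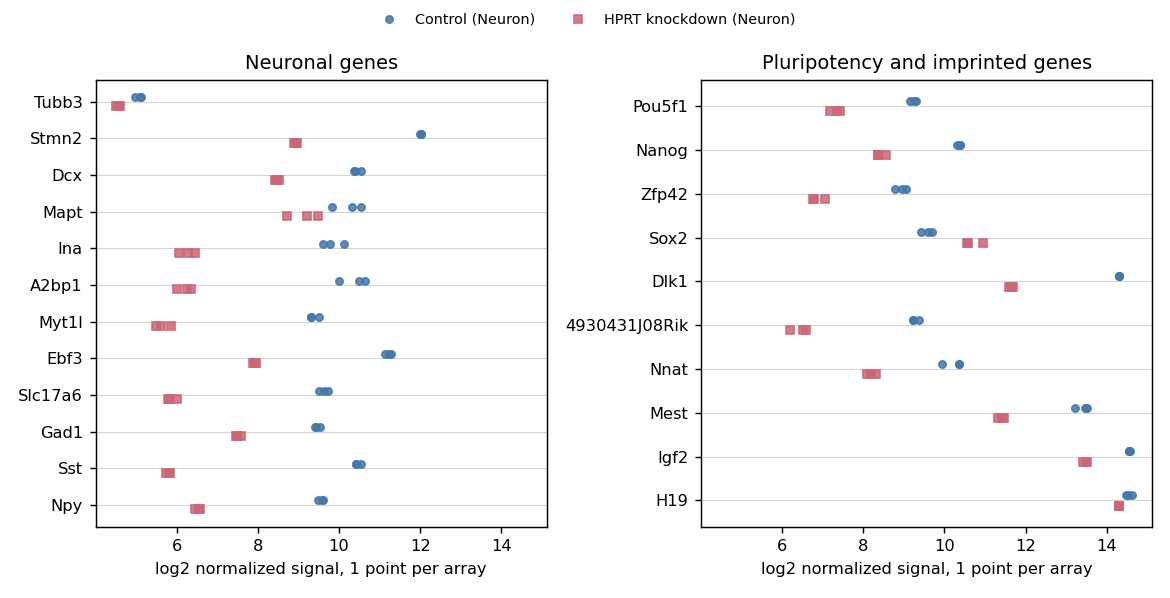
Log2 normalized signal on each array (horizontal axis) of 12 neuronal genes (left) and 10 pluripotency and imprinted genes (right). Circles are the 3 control arrays and squares the 3 knockdown arrays. Knockdown arrays lie to the left of control arrays for each gene shown except Sox2.

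The purine genes around HPRT showed no common direction. Of 28 genes of purine salvage, interconversion and breakdown, 23 were tested, and 6 were lower, 4 higher and 13 not called, with a median of 0.03. The list holds Hprt1 itself, so the lower genes include the target of the hairpin, with the largest fall of the list (log2 fold change -4.45). Aprt, which salvages adenine as HPRT salvages hypoxanthine, gave 11.89, 11.80 and 11.86 in control and 11.79, 11.73 and 11.69 in knockdown cells and was not called. Adk, which salvages adenosine, gave 9.97, 10.10 and 10.15 against 10.32, 10.45 and 10.45 and was not called. Nt5e, which makes adenosine outside the cell, gave 5.96, 6.01 and 5.85 against 7.76, 7.87 and 7.92 (3.76-fold higher). Ampd3, an AMP deaminase, was 2.82-fold higher, whereas Ampd1, the AMP deaminase of muscle, was detected on 0 knockdown arrays and at least 16-fold lower. Adssl1, the muscle adenylosuccinate synthetase, was 3.68-fold lower, so the lower members of this list include genes of muscle.

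In de novo purine synthesis the called genes were lower. All 14 genes were tested, and 4 were lower, 0 higher and 10 not called, with a median of -0.43. Prps1, which makes the sugar phosphate used by de novo synthesis and by HPRT alike, gave 10.80, 10.73 and 10.74 in control and 9.79, 9.83 and 9.79 in knockdown cells (1.94-fold lower). Shmt1, Adsl and Gart were 2.12, 1.75 and 1.65-fold lower. Ppat, the first committed step, gave 8.06, 8.03 and 7.95 against 7.38, 7.62 and 7.41 and missed the 1.5-fold minimum, which it passed without knockdown array 2. Of 26 purinergic receptors, ectoenzymes and nucleoside transporters, 16 were tested, and 9 were higher, 2 lower and 5 not called, with a median of 0.67 (0.63 with undetected members at their bound). P2rx4, an ATP-gated channel, gave 6.07, 5.92 and 6 against 8.21, 8.19 and 8.16 (4.56-fold higher), and P2ry6, a receptor for UDP, was 4.06-fold higher. Enpp6 and Enpp2 (7.28-fold higher), counted here as ectoenzymes, are also genes of the oligodendrocyte lists. P2rx5, detected on 2 of the 3 knockdown arrays, was 2.80-fold lower. The higher call of the adenosine receptor Adora1 rests on its brightest probe, and another of its probes was lower.

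Signalling families were divided in direction, as were all tested probes (13.9% higher and 13.5% lower). The shares of tested genes called higher and lower were 20.8% and 12.5% for Notch and 11.5% and 23.1% for Wnt. They were 17.2% and 24.1% for BMP, activin and TGF-beta and 10.5% and 31.6% for FGF. Some of these, such as 12.5% for Notch and 11.5% for Wnt, lie near the shares over all tested probes. Of 30 Notch pathway genes, 29 were on the array and 24 were tested, and 5 were higher, 3 lower and 16 not called (median 0.05). The targets Hey2 and Hey1 were 4.16 and 3.11-fold higher, Hey1 at 9.43, 9.27 and 9.26 against 10.93, 11.01 and 10.93, in contrast to Hes5 above. The receptor Notch1 was 1.63-fold higher, and without background correction 1 gene of the list was lower. Of 39 Wnt genes, 26 were tested, and 3 were higher, 6 lower and 17 not called (median -0.13), with Dkk3 3.68-fold higher and the secreted inhibitors Sfrp2 and Sfrp1 6.06 and 2.39-fold lower. Without knockdown array 3, 5 Wnt genes were higher, and without background correction 1. Of 35 genes of BMP, activin and TGF-beta signalling, 34 were on the array and 29 were tested, and 5 were higher, 7 lower and 17 not called (median 0.11). Bmp4 was 3.36-fold higher and Fst (follistatin), which binds activin and is abundant in muscle precursors, 3.34-fold lower. Without knockdown array 2, 3 genes of this list were higher, and without background correction 4 were lower. Of 27 FGF genes, 26 were on the array and 19 were tested, and 2 were higher, 6 lower and 11 not called (median -0.08). Fgf13, a neuronal member that is not secreted, gave 10.16, 10.17 and 10.09 against 7.99, 8.02 and 7.93 (4.48-fold lower), and Fgfr3, a receptor of glial precursors, was 2.89-fold higher. Under either setting without background correction 3 FGF genes were lower.

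The same lists at the SNM stage, the stage before, were compared to see which differences were present before the neuronal stage. At the SNM stage 11% of 20765 tested probes were higher and 8.9% lower in knockdown cells. The myelin list pointed the other way there, with 3 of 22 tested genes higher and 10 lower, and its summed signal was between 19192 and 20020 in control and between 10608 and 11010 in knockdown cells. At the neuronal stage it was between 14264 and 15135 in control and between 121596 and 125632 in knockdown cells. The sarcomere list was likewise turned, with 20 of 30 tested genes higher and 0 lower at the SNM stage. Its summed signal there was between 6493 and 6929 in control and between 11629 and 12029 in knockdown cells, against 159328 to 162305 in control and 5468 to 5774 in knockdown cells of the neuronal stage. Proliferation genes were already lower at the SNM stage (26 of 35 tested, 0 higher), and lysosomal genes already higher (13 of 36, 0 lower). Astrocyte genes were already higher (15 of 26, 1 lower), and pluripotency genes already lower (10 of 19, 2 higher). Among neuronal lists, the cytoskeleton list had 11 of 31 tested genes higher and 3 lower at the SNM stage and the synaptic list 13 of 26 higher and 1 lower, against 1 and 19 of 31 and 6 and 8 of 27 at the neuronal stage. Proneural genes were lower in 7 of 18 and higher in 0, and neuropeptide genes higher in 9 and lower in 6 of 23. Imprinted genes were higher in 5 and lower in 1 of the tested genes at the SNM stage, and their summed signal in control cells went from between 53948 and 54690 to between 102208 and 107022. Nkx2-1 and Shh had log2 fold changes of 6.01 and 5.15 at the SNM stage and of 2.76 and 2.61 at the neuronal stage.

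The difference of the knockdown effect between both stages was tested in the same limma fit. The knockdown itself was unequal between them: on the brightest Hprt1 probe SNM cells gave mean log2 signals of 11.20 in control and 9.44 in knockdown cells, a difference of -1.76 against the -4.45 of neuronal-stage cells. Its part in the differences between stages was not tested. The effect rose for 3044 of 22160 probes (13.7%) and fell for 3287 (14.8%), 28.6% in all. Of the probes called higher at the neuronal stage, 1762 also had an effect called above that of the SNM stage, and of those called lower, 1886 had an effect called below it. The 10 leading rises and the 10 leading falls were all among them. These genes were picked by the size of their neuronal-stage effect, which enters the difference, so this follows largely from their choice. Sox10 went from an effect of -1.75 at the SNM stage to 5.85, and Opalin from -2.35 to 7.14. Sln went from 1.96 to -7.25, and Acta1 from 0.23, not called, to -8.03. Both comparisons share no arrays.

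**Figure D5:**
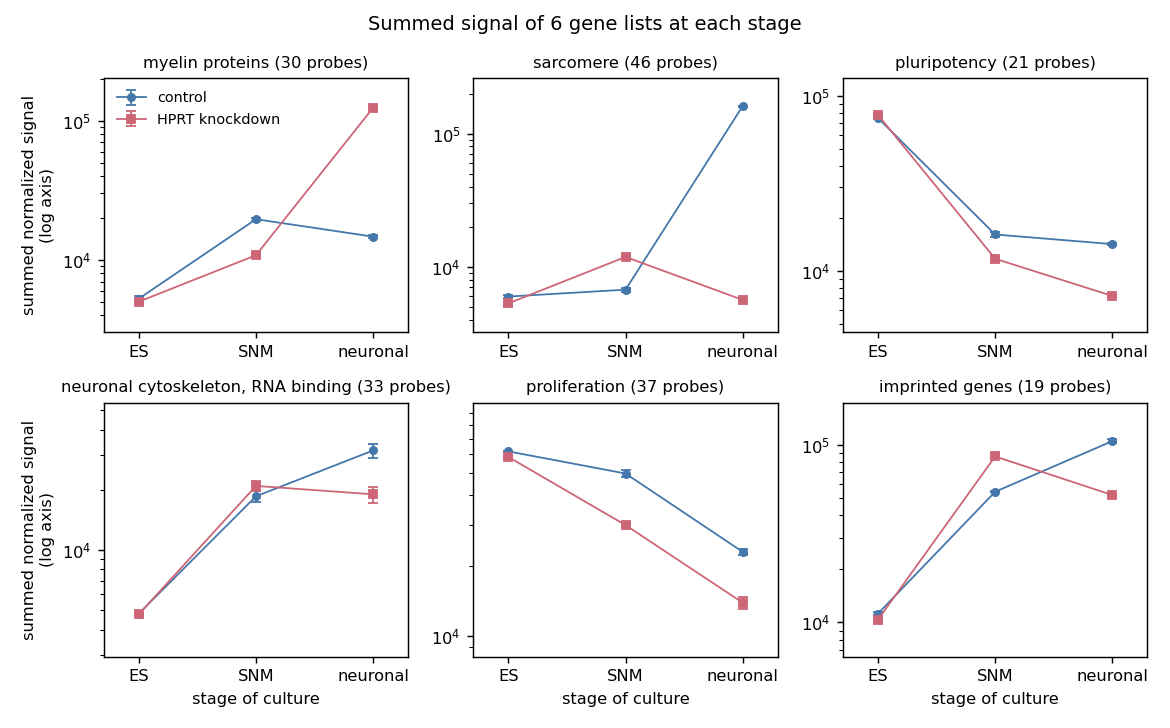
Summed normalized signal (vertical log axis, linear signals with the offset of 16) of 6 gene lists at the ES, SNM and neuronal stages. Points are the middle of the range of 3 arrays and bars the range, blue circles for control and red squares for knockdown cells. Myelin genes stand at 121596 to 125632 in knockdown cells and sarcomere genes at 159328 to 162305 in control cells of the neuronal stage.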

How the data were processed

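The arrays were Illumina MouseWG-6 v2 expression arrays, 3 for each of 6 conditions. For each probe the authors deposited the scanner's average signal intensity, not normalized, and a detection p-value. A further 72 columns of values could not be paired with a sample and were not used. The signals of all 18 arrays were background corrected, quantile normalized and log2 transformed with the neqc function of limma 3.58.1 (R 4.3.3) with an offset of 16. Detection p-values under 0.05 defined detected probes. One limma model with 6 groups gave the knockdown effect at each stage and its difference between stages, with Benjamini-Hochberg adjustment over all tested probes. A probe was called at an adjusted p under 0.05 and at least 1.5-fold. The labels give the array number as a replicate number without saying whether it pairs samples, and it was not in the main model. Since each group was 1 RNA pool on 3 arrays, the number of arrays limits the precision, and the errors cover the measurement alone.

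A gene was represented by its brightest probe over the 18 arrays. Probes undetected on all 3 arrays of a group were given as bounds against the lowest detected signal of each array, or the probe's own value where higher. Of 36692 probes with a RefSeq accession, 27655 matched a current gene, and for 4785 of these the symbol differs. Array symbols were kept. Named genes were Hprt1 and the 10 largest rises and falls among called genes whose knockdown and control arrays did not overlap. From each gene list they were the first 4 genes and the 6 called members with the largest change, plus genes the study names. A few others, said to be exceptions to their list, were named after their values were seen. A few genes that met this rule are not reported here. The comparison, its members and the gene lists were chosen with earlier results of these data known.

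Alternatives were quantile normalization or 75th percentile scaling of signals that were not background corrected, background correction without scaling, no detection filter, a detection p under 0.01, the array number as a block, the neuronal-stage arrays alone, a 2-fold or no minimum, each array left out in turn, the mean over a gene's probes, undetected members at their bound, and the methods' t-test, a per-probe test on the same values. The fitting step was tested on simulated data.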

Additional observations from a re-analysis of the deposited data

Results flagged for a closer look

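The knockdown effect differed between the neuronal and the SNM stage for 6331 of 22160 probes, 3044 in which it rose and 3287 in which it fell, by limma's test of the difference itself. Genes that lead the neuronal comparison were among them. They were picked by their neuronal-stage effect, which is part of the difference, so their place here follows largely from that choice. For each, the value is the effect at the neuronal stage minus that at the SNM stage on the log2 scale. For genes of the oligodendrocyte lineage the difference was 9.49 for Opalin, 8.79 for Mag, 8.58 for Enpp6 and 7.81 for Mbp. It was 7.60 for Sox10, 7.09 for Fa2h, 6.93 for Gpr17 and 4.68 for Nkx2-2, and 5.40 for 1190002H23Rik. For muscle genes it was -10.12 for Myh8, -10.05 for Tnnc2, -9.83 for Myh3 and -9.21 for Sln. It was -8.93 for Tnni2, -8.72 for Myl4, -8.30 for Myl1, -8.26 for Acta1 and -8.18 for Mylpf, and -10.43 for the unnamed entry scl000959.1_2. The fitted effects of Sln at the neuronal stage, and of other probes undetected in a group, depend on the background correction and are no bounds.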

How the results depend on the processing

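No called named gene, Hprt1 included, and no list median of at least 1.5-fold changed direction under the alternatives run. For the other called probes only the counts were compared. With quantile normalization and no background correction 1858 probes were higher, 1846 were lower and 4031 differed between stages, and with scaling to the 75th percentile and no background correction 1939 were higher, 1821 lower and 4260 differed. A 2-fold minimum left 1275 higher and 1361 lower probes, and no minimum gave 6137 and 6012. The methods' t-test gave 2836 higher and 2787 lower probes at its unadjusted threshold and 2758 and 2722 after Benjamini-Hochberg adjustment. Leaving out each array in turn gave 2871 to 2962 higher, 2795 to 2853 lower and 6291 to 6419 between stages, and -4.47 to -4.43 for Hprt1. The labels do not say whether array numbers pair the samples, and the arrays do not settle it. Deviations of same-numbered arrays from their group means correlated at 0.637, 0.0921 and 0.348. For differently numbered arrays the values were -0.611, -0.496, -0.312, -0.0593, -0.0378 and 0.437. Not every array correlated best with its own number (control array 2 with knockdown array 3, 0.437). With the array number as a replicate block 2931 probes were higher, 2843 lower and 6506 differed between stages. Of 396 results for named genes, 39 changed their call under some alternative, and of 96 list counts 20 moved by over 1.5 times, mostly without background correction. Of 48 list medians, 43 moved by more than their spread between arrays under some alternative, in 32 and 34 lists under the settings without background correction, in 30 without the detection filter and in 4 to 12 when 1 array was left out. The medians of the ventral forebrain, Notch, purine salvage, heart, BMP and TGF-beta, and receptor lists changed sign under at least 1 setting and give no direction. The cause was not tested. Signal over background limits what can be said of dim genes such as Th, Tubb3 and Myod1, and no value here covers the spread between cultures.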

Other observations

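Genes of other cell types that such cultures can hold were measured beside those above. Of 19 endoderm genes, 10 were tested and 7 were higher in knockdown cells with 0 lower and 3 not called (median 0.85), and 4 were higher with quantile normalization without background correction. Amn and Cubn, which form an uptake receptor of visceral endoderm, were 3.18 and 2.57-fold higher, and the endoderm factor Gata6 was 2.22-fold higher, whereas Alb and Afp were detected on 0 arrays. Of 17 genes of epithelium, ependyma and choroid plexus, 11 were tested and 4 were higher, 0 lower and 7 not called, with the keratin Krt19 4.78-fold and the claudin Cldn6 3.81-fold higher, and without background correction 2 were higher. Of 18 endothelial genes, 11 were tested with 4 higher, 4 lower and 3 not called. Emcn was 3.74-fold lower and Vwf, detected on 1 control array, 3.07-fold higher, and without background correction 2 were lower. Of 19 cartilage and bone genes, 14 were tested with 4 higher, 4 lower and 6 not called. The collagens differed in direction, Col9a1 5.24-fold higher and Col2a1 4.35-fold lower, and without background correction 2 were lower. Of 18 genes of immune cells, 3 were tested and 0 called, and Ptprc and Cx3cr1 were detected on 0 arrays.

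Among 39 Hox genes, 22 were tested with 7 higher, 2 lower and 13 not called, and without background correction 3 were higher. Hoxa7 was 3.60-fold higher, while Hoxb5 and Hoxb3 were 3.42 and 3.26-fold lower. Of 22 genes of interferon response and antigen presentation, 17 were tested with 6 higher, 0 lower and 11 not called. The higher genes included H2-D1, a class I histocompatibility gene, at 8.44, 8.33 and 8.40 in control and 10.85, 10.77 and 10.66 in knockdown cells (5.16-fold), and its partner B2m (2.12-fold), whereas Ifit1 was detected on 0 arrays. Of 20 p53 targets, all tested, 3 were higher, 1 lower and 16 not called, Gdf15 by 3.32-fold higher and Cdkn1a not called. Of 22 genes of the Atf4 stress response, 20 were tested with 4 higher, 3 lower and 13 not called, Slc7a11, detected on 2 of the 3 knockdown arrays, 5.73-fold lower and Atf3 2.53-fold higher. The shares higher and lower were 15% and 5% of the p53 targets and 20% and 15% of the Atf4 genes. Over all tested probes they were 13.9% and 13.5%. Of 25 genes that the study names in its text, 16 were tested with 4 higher, 4 lower and 8 not called. These are 25% higher and 25% lower, against 13.9% and 13.5% over all tested probes. The list pools genes the study names for knockdown or for control cells, so its counts do not compare directions with the study.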
